A study of Homo sapiens with 4 samples.

Results

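Chromosome 22q is the long arm of a small acrocentric chromosome, and 57 of its protein-coding genes are described here in HGC-27 cells with and without disruption of RUNX3. The 57 genes were taken from a list of named 22q genes that was drawn up because RNA of this chromosome was lower in RUNX3 KO libraries, so that their lowered level is what selected them and is given as a description. They were 57 of 25559 gene symbols in the count tables, and 56 of them were among the 12967 genes with enough counts to be tested. TCN2, which encodes the vitamin B12 carrier transcobalamin, was not tested. Its counts were 1 and 0 in control cells against 0 and 1 in RUNX3 KO cells. The other 237 tested genes of chromosome 22 served as the nearest comparison.

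HGC-27 is an established gastric cancer cell line, and 2 RNA-seq libraries were made from control cells, labelled wildtype, and 2 from RUNX3 KO cells. RUNX3 KO cells were made with a Cas9 guide RNA against exon 3 of RUNX3 followed by single-cell cloning, and the number of clones behind the 2 libraries is not given in the sources used here. RUNX3 is a transcription factor of the RUNT family encoded on chromosome 1. Its counts were 351 and 308 in control cells against 225 and 185 after knockout, which is 27.9 ± 2.57 against 17.2 ± 2.60 CPM (counts scaled to the normalized library size; mean ± SD, n = 2 per group). The log2 fold change, given throughout as RUNX3 KO over control, was -0.70 for RUNX3 with a standard error (SE) of 0.0961 (adjusted p = 1.43e-09, from the quasi-likelihood test of edgeR adjusted by Benjamini-Hochberg). Counts over the whole gene do not show whether a small lesion at the guide site was present. The paper reports that loss of RUNX3 was checked in RNA and protein after cloning. Its immunoblot of the RUNX3 KO cells showed no RUNX3 protein. Because nothing in the labels says that the 2 libraries of a group came from separate cultures or clones, p-values measure only the spread between these libraries, which may be technical.

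Reads counted on genes numbered 11731401 to 12110876 per library. Of the epithelial markers checked, EPCAM had 1, 1, 0 and 0 counts in control replicates 1 and 2 and RUNX3 KO replicates 1 and 2, and KRT19 had 0 in all 4 libraries. CDH1 had 15, 21, 30 and 32 counts, KRT8 19, 11, 72 and 81 and KRT18 0, 0, 2 and 14, in the same order. The mesenchymal gene VIM had 57834 and 57486 counts in control and 33828 and 35307 in RUNX3 KO cells, FN1 had 115 and 95 against 15 and 11, and CDH2 had 0 to 3 in every library. Mean levels of the fibroblast markers were 1250 CPM in control and 683 CPM in RUNX3 KO cells for COL1A1, 1900 and 1550 for COL3A1, 155 and 119 for DCN, and 7.50 and 3.15 for PDGFRB. The leukocyte and endothelial markers CD3E, PECAM1 and CDH5 had 0 counts in every library, and PTPRC and CD14 had 0 to 5. Epithelial markers of the labelled cell type were thus at or near 0 or low in both groups, and the part of these marker differences in the results was not tested.

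The long arm of chromosome 22 is dense in housekeeping genes. It carries several genes studied in tumours, among them NF2, SMARCB1, CHEK2 and EP300, and the breakpoint genes BCR and EWSR1. In cells with altered chromosome number, RNA of genes on the affected chromosome tends to move together, while single genes may depart from the common shift because of their own regulation. DNA copy number was not analysed here. In bulk RNA, fewer cells carrying a given level and less RNA per cell cannot be told apart.

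Of the 56 tested 22q genes, 53 were lower in RUNX3 KO cells, 0 were higher and 3 (TRMU, CCDC117 and KDELR3) passed the test in neither direction. By the same criterion, an adjusted p under 0.05 in edgeR's test, 24.4% of all tested genes were lower, 24.5% higher and 48.9% changed in either direction. The log2 fold change was below 0 in 55 of the 56 (50.4% of all tested genes). Nothing is read from the difference between these shares, since the genes were selected on this contrast. The median log2 fold change of the 56 genes was -0.52, which corresponds to 69.5% of the control level. In 54 of them both RUNX3 KO libraries lay below both control libraries (36.4% of all tested genes did so), in KDELR3 both lay above, and in TRMU the groups overlapped. CBX7 was the single gene lower by 2-fold or more with an unadjusted p up to 0.05, the cut-offs of the study, which 4.01% of all tested genes passed in that direction.

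The lowered level was visible in the raw libraries. All 57 genes, TCN2 included, together took 90004 and 89394 control counts and 64268 and 65293 RUNX3 KO counts. As shares of all gene counts these were 0.767% and 0.762% against 0.540% and 0.539%. When single libraries were set against each other, the median log2 ratio of the 56 genes lay between -0.51 and -0.47 for the 4 pairs of a RUNX3 KO and a control library, and 54 or 55 of the genes were negative in each pair. The 2 control libraries differed by a median of -0.02 and the 2 RUNX3 KO libraries by 0.02. The genes were selected on the difference between the groups, so nothing is read from its size beside these values.

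**Figure D1:**
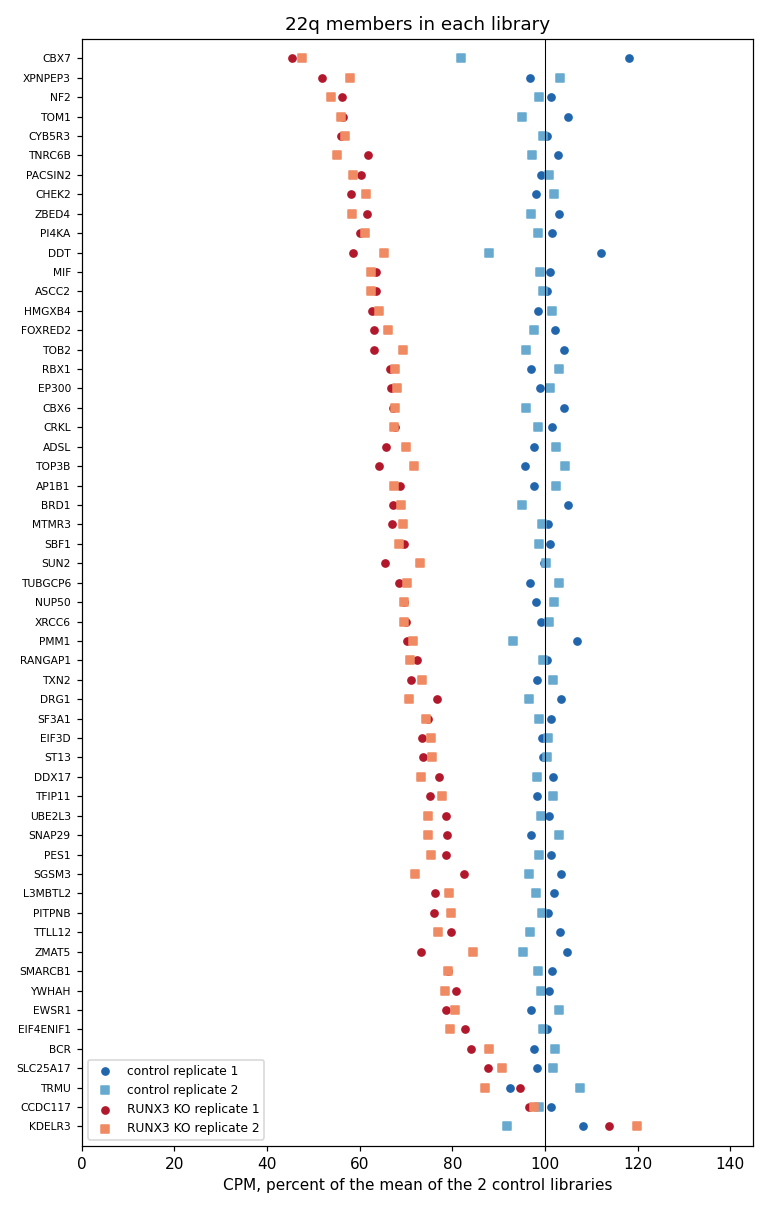
Level (CPM) of each tested 22q gene in each of the 4 libraries, as a percentage of the mean of the 2 control libraries, with genes ordered by fold change and blue points for control and red for RUNX3 KO libraries. Both RUNX3 KO libraries lay below both control libraries in 54 of 56 genes, and KDELR3, at the end of the order, was the single gene with both RUNX3 KO libraries above.

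The size of the log2 fold change varied from gene to gene. Its SD among the 56 genes was 0.22 and the median SE 0.0514. Among genes with a mean of at least 200 counts, the SD was 0.18 in 53 selected genes (median SE 0.0498). It was 0.22 in 141 other genes of chromosome 22 (median SE 0.0613). Genes of other chromosomes with that mean had an SD of 0.34 and a median SE of 0.0585. The selected genes were chosen on this contrast and the SE may reflect technical spread alone, so no uniformity or lack of it is read from these values. The 95% interval of the gene held the common median of -0.52 in 23 genes, lay entirely below it in 13 and entirely above it in 20. Of the 56, 41 were within 0.2 of the median on the log2 scale, and the interquartile range ran from -0.64 to -0.37. Restricted to genes with a mean of at least 200 counts, the interquartile range spanned 0.25 in 53 of the selected genes, 0.29 in 141 other genes of chromosome 22 and 0.30 in 8047 genes of the other chromosomes. Since the selection used these values, nothing is read from the narrower range of the selected genes.

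The 4 genes singled out by name did not share 1 position relative to the median. NF2 and CHEK2 were below it, EP300 was close to it and SMARCB1 was above it, and each of the 4 was called lower. Their levels in each library are shown in the plot of 6 genes.

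NF2 (chr22:29999545-30094587 in hg19, plus strand) encodes merlin, a membrane-cytoskeleton linker upstream of the Hippo pathway. NF2 had 57.7 and 56.2 CPM in control against 32.0 and 30.7 in RUNX3 KO libraries. The log2 fold change was -0.86 (SE 0.0681), which is 55.1% of the control level. The 10 tested genes around NF2, 5 on each side in order of their starts, had a median of -0.55.

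CHEK2 (chr22:29083731-29138410, minus strand) encodes a checkpoint kinase activated by DNA double-strand breaks. CHEK2 had 34.3 and 35.7 CPM in control against 20.3 and 21.5 in RUNX3 KO libraries, so that its log2 fold change was -0.74 (SE 0.0839). Annotated pseudogenes that share its name number 7, and reads of near-identical copies may have been split between them and CHEK2, so its value is uncertain to that extent.

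EP300 (chr22:41488596-41576081, plus strand) encodes the histone acetyltransferase p300. It had 175 and 179 CPM in control against 118 and 121 in RUNX3 KO libraries. The log2 fold change of EP300 was -0.57 (SE 0.0388), or 67.4% of the control level. Its neighbour RBX1, 119 kb away, had -0.58.

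SMARCB1 (chr22:24129118-24180196, plus strand) encodes a core subunit of SWI/SNF chromatin remodelling complexes. SMARCB1 had 127 and 123 CPM in control and 98.7 in both RUNX3 KO libraries, for a log2 fold change of -0.34 (SE 0.0433). It thus stayed at 79.2% of the control level, and its interval lay above the median of the 56 genes. None of these 4 genes escaped the lowered level.

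**Figure D2:**
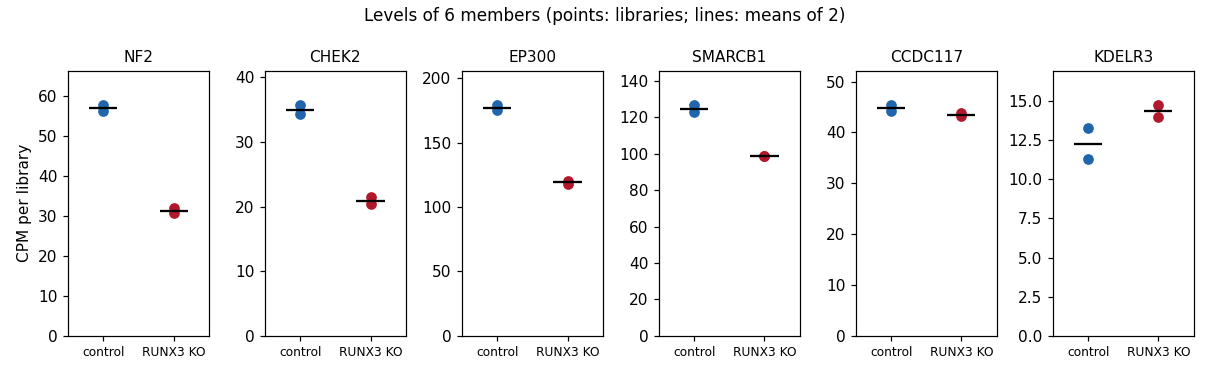
Level of NF2, CHEK2, EP300, SMARCB1, CCDC117 and KDELR3 in CPM in each library, with points for libraries and lines for the mean of 2. NF2 fell from 56.9 to 31.4 CPM, while CCDC117 stood at 44.8 and 43.5 CPM and KDELR3 at 12.3 and 14.4 CPM.

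The genes that were not called lower were KDELR3, CCDC117 and TRMU. KDELR3 (chr22:38864083-38879452, plus strand) encodes a receptor that returns KDEL-tagged proteins from the Golgi to the endoplasmic reticulum. Its counts were 157 and 133 in control against 165 and 177 in RUNX3 KO libraries, and its log2 fold change was 0.22 (SE 0.119). It was not called higher in the fit of all 4 libraries, but it was called when control replicate 1 was left out (log2 fold change 0.35, adjusted p = 0.0455 by edgeR). Without control replicate 2 the value was 0.11 (adjusted p = 0.581 by edgeR). All 10 tested genes around KDELR3 (5 on each side) were negative, with a median of -0.45. The annotated 3′ ends of KDELR3 and DDX17 overlap by a few bases on opposite strands, so a few reads may belong to either gene if counting ignored strand, which the sources used here do not state. DDX17 had -0.41.

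CCDC117 (chr22:29168662-29185289, plus strand), a coiled-coil protein that is little characterised, had 535 and 522 control counts against 510 and 526 after knockout. Its value was -0.04 (SE 0.0666), with an interval that lay above the median of the 56 genes. CHEK2 lies 30.3 kb away at -0.74, a difference of 0.70 between adjacent genes of the list. The 10 tested genes around CCDC117 (5 on each side) had a median of -0.65. TRMU, which encodes a mitochondrial tRNA-modifying enzyme, had 341 and 396 counts in control cells and 349 and 327 in RUNX3 KO cells (log2 fold change -0.14, SE 0.0822). It was called lower when control replicate 1 was left out (-0.24, adjusted p = 0.0324 by edgeR), whereas the value was -0.03 without control replicate 2 (adjusted p = 0.855 by edgeR) and -0.08 without RUNX3 KO replicate 2. Of the 10 tested genes around TRMU (5 on each side) 9 were negative.

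SLC25A17 and BCR had the smallest values among genes that were called. SLC25A17, a peroxisomal carrier of nucleotide cofactors, had 744 and 769 counts in control cells and 664 and 699 in RUNX3 KO cells (-0.16, SE 0.0571). BCR, the fusion partner of ABL1 in the Philadelphia chromosome, had 525 and 549 counts in control cells against 451 and 481 (-0.22, SE 0.0683). Both calls were lost with DESeq2 and when control replicate 2 or either RUNX3 KO library was left out. BCR shares its name with 8 annotated pseudogenes.

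At the other end, CBX7 had the lowest value and the fewest counts. CBX7 (chr22:39516172-39548685, minus strand), a chromobox subunit of Polycomb repressive complex 1, had 39 and 27 control counts against 15 and 16, so that its log2 fold change was -1.10 (SE 0.301). Its wide interval held the median, and the call was lost with DESeq2 (adjusted p = 0.0967) and when control replicate 1 or either RUNX3 KO replicate was left out. Without control replicate 1 its log2 fold change was -0.81. XPNPEP3, a mitochondrial aminopeptidase, had 444 and 474 counts against 238 and 271 (-0.86, SE 0.0823). TOM1, an adaptor for ubiquitinated cargo, had 302 and 273 against 162 and 164 (-0.83, SE 0.102). CYB5R3, which encodes cytochrome b5 reductase, had 2218 and 2194 against 1234 and 1277 (-0.83, SE 0.0393). These genes were called lower without overlap of the groups, and for CYB5R3, with the most counts of the 4, the interval was narrowest.

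The 3 genes with the most counts had narrow intervals. XRCC6, which encodes the Ku70 subunit that binds broken DNA ends, had 876 ± 10.9 CPM in control and 611 ± 3.09 in RUNX3 KO libraries (n = 2 each). At -0.52 (SE 0.0238) it lay at the median. DDX17, an RNA helicase, had 511 ± 11.95 against 384 ± 13.9 CPM (-0.41, SE 0.0275). EWSR1, the RNA-binding fusion partner of Ewing sarcoma, had 384 ± 16.3 against 306 ± 5.75 CPM (-0.33, SE 0.0296). The interval of XRCC6 overlapped with neither of the other two.

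Grouped by role, all 10 tested signalling genes were lower, with a median of -0.56. The kinase PI4KA, which makes phosphatidylinositol 4-phosphate at the plasma membrane, had -0.72, the cytokine MIF -0.67, its paralog DDT -0.69, the adaptor CRKL -0.57, the lipid phosphatases and pseudophosphatases MTMR3 and SBF1 -0.55 and -0.54, the GTPase-activating protein SGSM3 -0.37 and the 14-3-3 protein YWHAH -0.33. NF2 was the lowest of the 10 signalling genes and BCR the highest. DDT is near-identical to DDTL, and PI4KA has 2 annotated pseudogenes of its name, so the counts of both are uncertain.

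Among 4 genes of DNA repair and checkpoint function all were lower, with a median of -0.61. Beside CHEK2 and XRCC6 these were TOP3B, a topoisomerase (-0.56), and ASCC2, which recruits an alkylation repair complex (-0.67). The 9 genes of chromatin and transcription were all lower too, with a median of -0.57. They ran from CBX7 over ZBED4 (-0.74), HMGXB4 (-0.66), the Polycomb chromobox gene CBX6 (-0.57), EP300 and the bromodomain scaffold BRD1 (-0.56) to L3MBTL2 (-0.36), SMARCB1 and EWSR1.

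RNA processing and translation held 11 genes, of which 10 were lower, and their median of -0.41 was nearer to 0 than that of the other roles. Their interquartile range spanned 0.07 on the log2 scale. The splicing factor genes SF3A1 and TFIP11 had -0.42 and -0.39, the initiation factor gene EIF3D -0.42, the ribosome-biogenesis gene PES1 -0.38, the GTPase gene DRG1 -0.44, the 4E transporter EIF4ENIF1 -0.30 and ZMAT5 -0.34. The call of ZMAT5 was lost with DESeq2 (adjusted p = 0.32), without a filter on low counts and when control replicate 1 or either RUNX3 KO replicate was left out. Calls of DDT and PMM1 were lost when either RUNX3 KO replicate was left out, and those of SNAP29, SGSM3 and EIF4ENIF1 without RUNX3 KO replicate 2. TNRC6B, a scaffold of microRNA silencing, stood apart at -0.77, followed by TOB2 at -0.59, and TRMU lay at the other end. Whether the roles differ from each other was not tested.

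Membrane traffic genes were lower in 5 of 6 cases with a median of -0.47, KDELR3 being the exception. PACSIN2, which bends membranes, had -0.75, the clathrin adaptor subunit gene AP1B1 -0.56, the SNARE gene SNAP29 -0.38 and the lipid-transfer gene PITPNB -0.36. Of the 5 genes for ubiquitin ligases, chaperones and peptidases, 4 were lower. RBX1, the RING subunit of cullin ligases, had -0.58, the chaperone cofactor ST13 -0.42 and the ubiquitin-conjugating enzyme UBE2L3 -0.38, with XPNPEP3 and CCDC117 at the extremes. ST13 shares its name with 17 annotated pseudogenes.

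All 6 tested metabolic and organelle genes were lower (median -0.53). FOXRED2 had -0.63, the purine enzyme ADSL -0.56, the mannose enzyme PMM1 -0.50 and the mitochondrial thioredoxin TXN2 -0.47, besides CYB5R3 and SLC25A17. The 5 genes of the nuclear envelope and cytoskeleton were the most even, with values from -0.53 to -0.35. SUN2, which spans the inner nuclear membrane, had -0.53, the gamma-tubulin ring subunit gene TUBGCP6 -0.53, the nucleoporin gene NUP50 -0.52, the RAN GTPase activator RANGAP1 -0.48 and TTLL12 -0.35.

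The 56 genes were spread from PI4KA, which starts at base 21061979, to SBF1, which ends at base 50922352 of chromosome 22 (hg19). Lowered levels did not stop at a position along the arm. In windows of 5 Mb the median over tested genes lay between -0.56 and -0.49, from the window at 15 to 20 Mb (25 of 30 genes lower) to that at 50 to 55 Mb (21 of 26 lower). In the window at 40 to 45 Mb, which held 16 of the selected genes, 46 of 47 genes were lower, the highest share of any window. The lowest was at 45 to 50 Mb, where 13 of 20 were lower and 7 were not called. Across the 56 genes the log2 fold change had little relation to the start position (Pearson's r = -0.0971, Spearman's rho = -0.118), a description over genes that share libraries and are not independent replicates. For the mean log2 level r was 0.149, for transcript length -0.216 and for transcript GC content -0.205.

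**Figure D3:**
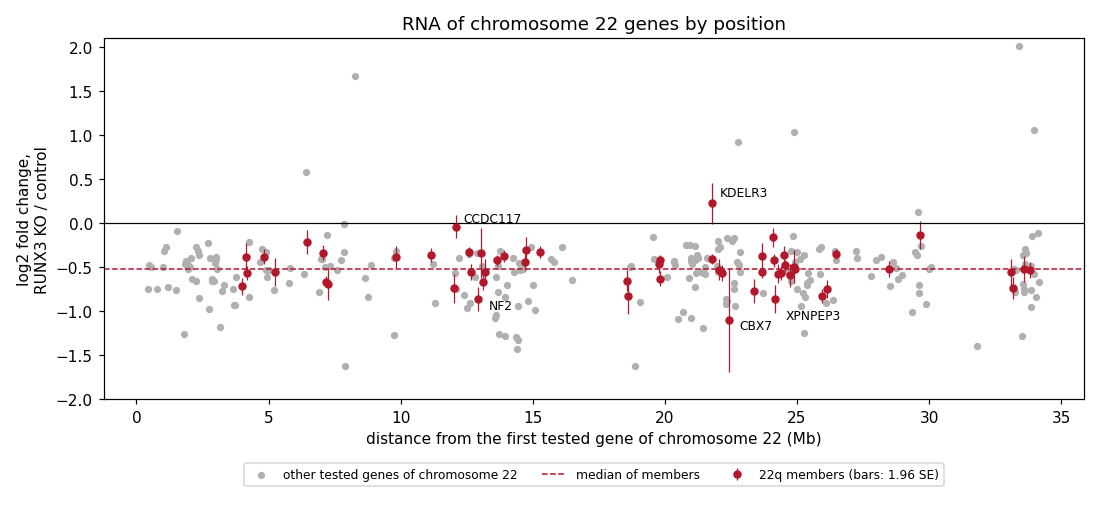
Log2 fold change (RUNX3 KO over control) of tested chromosome 22 genes against their distance in Mb from the first tested gene, with the selected genes in red (bars, 95% intervals) and the others in grey. The dashed line is the median of the selected genes, -0.52. Points lie around it over the whole arm, and 5 other genes with values under -2 are outside the axis.

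Close neighbours did not always share their value. ST13 and XPNPEP3 lie 0.438 kb apart and differed by 0.44, and NF2 and ZMAT5 lie 32.4 kb apart and differed by 0.52. MIF and DDT, 75.3 kb apart, differed by 0.02, and the chromobox genes CBX6 and CBX7, 248 kb apart, by 0.53. Of the 57 genes, 27 overlap another protein-coding gene in the annotation, 22 of them one on the opposite strand, and their counts may hold reads of the partner.

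The other 237 tested genes of chromosome 22 were not selected by name, although the chromosome was chosen with its values in view. Of these, 196 were lower (82.7%), 6 were higher and 35 were not called, and their median of -0.53 corresponded to 69.3% of the control level. Among the 141 with a mean of at least 200 counts 137 were lower and 0 higher. Chromosome 22 had the lowest median of the 23 chromosomes with tested genes, with 249 of 293 genes lower. Chromosome 14 followed with a median of -0.27 (276 of 414 lower), and chromosome 15 had the highest, 0.28. All genes of other chromosomes had a median of 0.01.

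**Figure D4:**
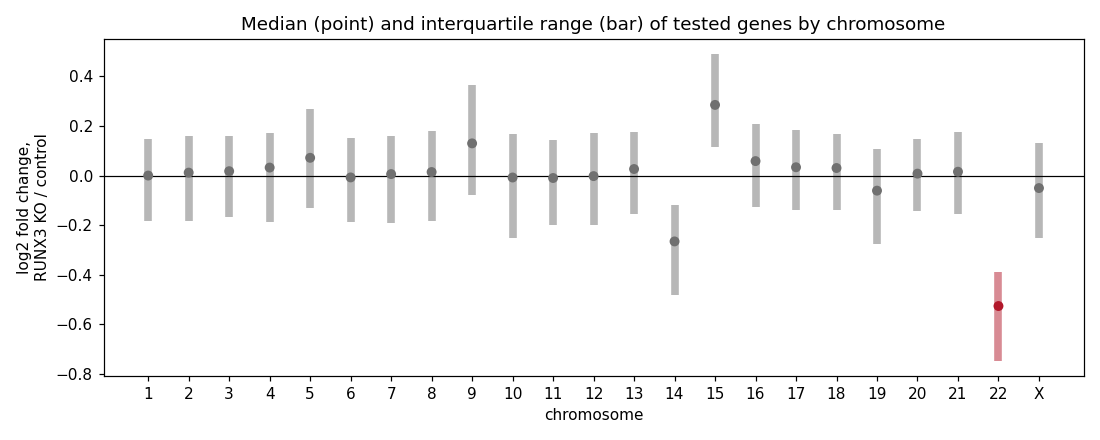
Median (point) and interquartile range (bar) of the log2 fold change of tested genes on each chromosome. Chromosome 22, in red, has a median of -0.53, chromosome 14 of -0.27 and chromosome 15 of 0.28, while most others lie near 0.

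Some chromosome 22 genes outside the list went against the shift. MLC1, a membrane protein gene known from astrocytes, had 44 and 33 counts in control cells and 144 and 169 in RUNX3 KO cells (2.01, SE 0.168, adjusted p = 1.52e-18 by edgeR). KIAA1671 had 37 and 44 against 119 and 141 (1.67), MAPK8IP2 41 and 27 against 66 and 77 (1.06), MGAT3 75 and 62 against 126 and 135 (0.92) and RAB36 52 and 51 against 70 and 85 (0.58). All 5 were called higher, and all 5 had few counts. The 5 lowest genes of the chromosome were nearly silent in RUNX3 KO cells. KIAA1644 had 192 and 215 counts in control cells against 1 and 0, psiTPTE22 109 and 108 against 3 and 0, MN1 44 and 46 against 8 and 2, TBX1 17 and 20 against 0 and 0, and APOL6 13 and 17 against 2 and 3.

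Several of the selected genes encode 1 subunit of a complex whose other subunits are encoded elsewhere, so genes of the same complexes or families on other chromosomes were examined. They were not selected on a lowered level, but the lists were drawn up with earlier results of these data known. Of 86 such genes 85 were tested, of which 16 were lower (18.8%), 31 higher (36.5%) and 38 not called. Among all tested genes 24.4% were lower and 24.5% higher. Their median log2 fold change was 0.03, against -0.52 for the 22q genes. Because the 22q genes were selected on this contrast, nothing is read from the gap, here or in the single lists below.

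SWI/SNF had 15 tested partner genes besides SMARCB1, of which 3 were lower and 5 higher (median 0.04). Its ATPase genes were at the ends of the range, with SMARCA4 at -0.15 (852 ± 32.8 against 768 ± 2.17 CPM, adjusted p = 9.96e-08 by edgeR) and SMARCA2 at 0.95 (52.4 ± 4.84 against 101 ± 1.11 CPM, adjusted p = 9.86e-29 by edgeR). SMARCA4 lies on chromosome 19, whose tested genes had a median of -0.06, and SMARCA2 on chromosome 9, with a median of 0.13. A link between these values was not tested. CREBBP, which encodes the acetyltransferase CBP related to p300, had 1997 and 1835 control counts against 1852 and 1852. Its value was -0.06 (SE 0.0386, adjusted p = 0.18 by edgeR) beside -0.57 for EP300. In CPM, CREBBP had 169 and 155 in control against 157 and 154 in RUNX3 KO libraries, and the groups overlapped.

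XRCC5, which encodes Ku80, the obligate partner of the XRCC6 product, had 10442 and 10624 control counts against 10606 and 10745. Its value was 0.01 on the log2 scale (SE 0.0229, adjusted p = 0.85 by edgeR), whereas that of XRCC6 was -0.52 (SE 0.0238). Counts of XRCC6 were 10251 and 10428 in control and 7238 and 7320 in RUNX3 KO libraries, without overlap, while those of XRCC5 overlapped. Of the 5 end-joining partners tested, 0 were lower and 2 higher, LIG4 having the highest value (0.60, adjusted p = 4.01e-06 by edgeR).

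Of 11 eIF3 subunit genes beside EIF3D, 2 were lower and 6 higher (median 0.09), from EIF3G at -0.36 to EIF3J at 0.42. The 8 SF3a and SF3b genes beside SF3A1 had 1 lower and 1 higher member (median 0.04), from SF3B4 at -0.12 to SF3B3 at 0.15. PES1 works with BOP1 (0.01) and WDR12 (0.28), of which WDR12 was called higher. EIF3D, SF3A1 and PES1 each lay below all of their tested partners on other chromosomes. Nothing is read from this, since they were selected on this contrast and their partners were not.

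Among 9 cullin and adaptor genes beside RBX1, 4 were lower and 4 higher (median 0.05), with CUL4B lowest at -0.40 and CUL1 highest at 0.23. Gamma-tubulin ring genes beside TUBGCP6 had 0 lower and 3 higher of 5 (median 0.25), from TUBG1 at -0.03 to TUBGCP4 at 0.43. ASCC3 and TRIP4, partners of ASCC2, had -0.03 and 0.41, and TRIP4, TUBGCP4 and EIF3J all lie on chromosome 15, which had the highest median. The adaptor genes AP1M1 and AP1G1 beside AP1B1 had -0.37 and 0.13. RANBP2 and RAN, beside RANGAP1, had -0.05 and 0.18, and 2 of 4 genes of that list were higher and 0 lower. Of 5 tested 14-3-3 genes beside YWHAH, 1 was lower and 3 were higher, from YWHAZ at -0.08 to YWHAE at 0.20.

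Partners as low as the 22q gene were found in 2 lists. Of 10 other genes of Polycomb repressive complex 1 beside CBX6 and CBX7, 3 were lower and 1 was higher (median -0.08). PHC1 had -0.71 (178 and 166 counts against 103 and 109, adjusted p = 1.28e-06 by edgeR), below CBX6, and RNF2 was highest at 0.24. Of 3 partners of SUN2 in the bridge between nucleus and cytoskeleton, SYNE2, on chromosome 14, had -0.58, near the -0.53 of SUN2, whereas SYNE1 had 1.19 with 23 and 20 counts against 46 and 53. In these lists the values on 22q and elsewhere overlapped.

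**Figure D5:**
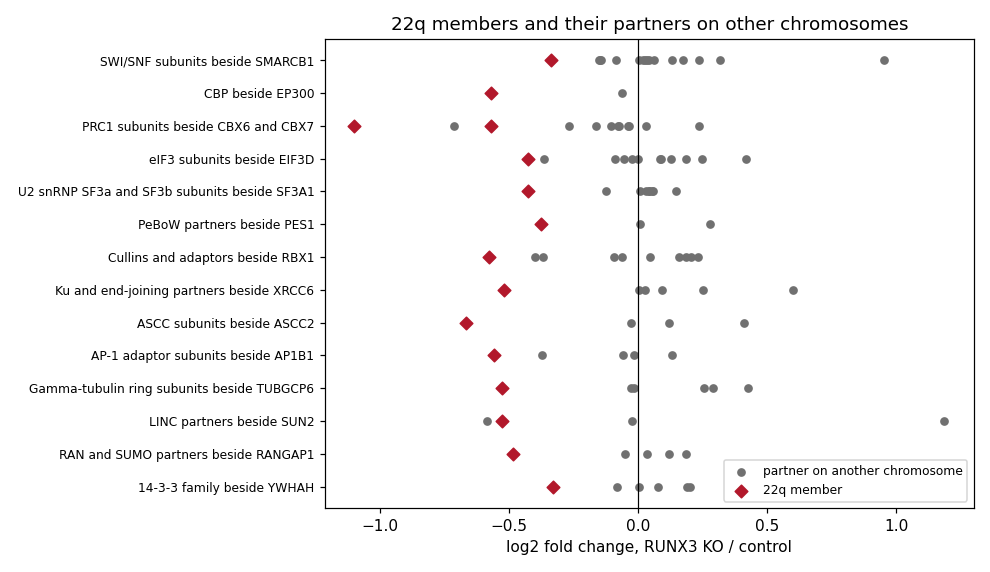
Log2 fold change (RUNX3 KO over control) of each tested partner gene on other chromosomes (grey) and of the 22q gene of the same complex or family (red diamonds), 1 row per list. Grey points centre near 0 with a median of 0.03, and the red points lie at the low end of most rows, PHC1 and SYNE2 being the partners as low as a 22q gene. The red genes were selected on this contrast, so nothing is read from the gap.

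Promoters were examined for what the selected genes share beyond their position. The RefSeq table of 300-base promoters (250 bases before to 50 after the start, GRCh38.p14) held 52 of the 57. Their median GC content was 71.3%, against 68.3% in 143 other tested genes of chromosome 22 and 65.7% in 8864 tested genes in all. The strings TGTGGT and TGTGGC were taken here as the RUNX motif and searched on both strands (ACCACA or GCCACA on the other strand). No overlap with another motif was considered. Other forms of the RUNX motif were not searched, so a promoter without a match may hold one. The searched motif was present in 11 of 52 (21.2%) promoters of the selected genes. The share was 22.4% for other chromosome 22 genes, 23.8% for all tested genes and 28.7% for all promoters in the table. The median log2 fold change was -0.67 in the 11 genes with the motif (-0.86 to -0.33) and -0.48 in the 41 without it (-1.10 to 0.22), given as a description. A match is only a run of letters and not evidence of binding.

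The promoters of the 4 genes singled out, of CCDC117 and KDELR3, which were not called lower, and of SNAP29, which shares its window with PI4KA, are printed 5′ to 3′ on the strand of the gene, in lower case with the searched motif in capitals, so that genes with similar surroundings and different RNA values can be compared. SNAP29 and PI4KA are transcribed away from each other, and their 300-base windows share 295 bases on opposite strands, while their log2 fold changes were -0.38 and -0.72.
NF2 (chr22:29603383-29603682, plus strand): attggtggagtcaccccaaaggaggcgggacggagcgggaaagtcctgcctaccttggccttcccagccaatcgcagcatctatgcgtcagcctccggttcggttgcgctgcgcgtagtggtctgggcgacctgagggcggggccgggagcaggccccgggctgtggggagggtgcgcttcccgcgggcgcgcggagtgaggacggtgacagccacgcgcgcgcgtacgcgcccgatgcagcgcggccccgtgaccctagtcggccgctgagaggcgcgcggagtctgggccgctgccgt
SMARCB1 (chr22:23786716-23787015, plus strand): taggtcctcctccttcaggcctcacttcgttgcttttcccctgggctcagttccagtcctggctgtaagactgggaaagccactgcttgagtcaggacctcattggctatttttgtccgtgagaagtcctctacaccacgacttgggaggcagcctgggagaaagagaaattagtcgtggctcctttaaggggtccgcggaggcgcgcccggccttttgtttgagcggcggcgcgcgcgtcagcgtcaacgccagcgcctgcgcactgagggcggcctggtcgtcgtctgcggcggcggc
EP300 (chr22:41092342-41092641, plus strand): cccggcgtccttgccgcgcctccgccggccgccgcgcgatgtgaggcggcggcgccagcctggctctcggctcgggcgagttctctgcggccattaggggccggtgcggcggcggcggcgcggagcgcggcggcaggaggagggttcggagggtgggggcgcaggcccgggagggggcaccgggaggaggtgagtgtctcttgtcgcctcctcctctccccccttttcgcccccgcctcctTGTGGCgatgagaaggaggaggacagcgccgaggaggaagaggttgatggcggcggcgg
CHEK2 (chr22:28741771-28742070, minus strand): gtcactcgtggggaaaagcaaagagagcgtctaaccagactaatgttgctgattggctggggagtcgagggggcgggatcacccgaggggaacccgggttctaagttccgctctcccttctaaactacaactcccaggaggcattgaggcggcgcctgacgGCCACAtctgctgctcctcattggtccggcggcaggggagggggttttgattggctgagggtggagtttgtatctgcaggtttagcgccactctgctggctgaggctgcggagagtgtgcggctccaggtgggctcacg
CCDC117 (chr22:28772445-28772744, plus strand): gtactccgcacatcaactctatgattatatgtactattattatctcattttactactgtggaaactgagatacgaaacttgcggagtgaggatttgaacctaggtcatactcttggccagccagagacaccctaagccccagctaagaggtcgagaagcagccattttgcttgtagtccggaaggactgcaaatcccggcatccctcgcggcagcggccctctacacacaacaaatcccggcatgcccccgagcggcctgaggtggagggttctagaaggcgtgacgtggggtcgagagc
KDELR3 (chr22:38467846-38468145, plus strand): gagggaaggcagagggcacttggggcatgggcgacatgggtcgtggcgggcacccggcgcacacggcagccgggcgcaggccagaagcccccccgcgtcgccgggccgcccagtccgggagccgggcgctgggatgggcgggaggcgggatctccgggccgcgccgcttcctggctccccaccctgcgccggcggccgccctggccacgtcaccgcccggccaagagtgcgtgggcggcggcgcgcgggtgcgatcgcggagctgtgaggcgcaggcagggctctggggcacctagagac
SNAP29 (chr22:20858757-20859056, plus strand): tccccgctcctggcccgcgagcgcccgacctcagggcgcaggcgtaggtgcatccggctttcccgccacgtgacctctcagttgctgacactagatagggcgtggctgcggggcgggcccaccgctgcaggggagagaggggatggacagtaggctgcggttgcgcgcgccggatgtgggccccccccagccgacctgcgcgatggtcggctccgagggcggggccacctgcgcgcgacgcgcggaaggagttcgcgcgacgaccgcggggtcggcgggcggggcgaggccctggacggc
The motif was found in 2 of these windows, at position 242 of EP300 (TGTGGC) and position 162 of CHEK2 (GCCACA), counted from 1 at the 5′ end. Both matches were to TGTGGC, on the other strand in CHEK2, and not to TGTGGT. NF2, with a lower value than EP300 or CHEK2, had no match in its window, nor did SMARCB1, CCDC117, KDELR3 or SNAP29. Whether these windows hold other forms of the RUNX motif was not searched.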

How the data were processed

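RNA-seq of HGC-27 cells comprised 2 control and 2 RUNX3 KO libraries, grouped by the labels. The authors deposited raw counts of reads per gene symbol, without normalization, on hg19. The paper names STAR and featureCounts with GENCODE genes, whereas the submitters' processing notes name HISAT2 2.1.0 and HTSeq, and the 5 closing rows of each table are of the form htseq-count writes. Label and paper also differ in the RNA kit and medium. The strand setting is not given in the sources used here, so overlapping genes on opposite strands and near-identical copies are uncertain. Rows without a gene held 25.9% to 28.1% of counts and were left out.

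The tables were read into R 4.3.3 and tested with edgeR 4.0.16: filterByExpr (minimum count 10, minimum total 15), TMM scaling, quasi-likelihood test and Benjamini-Hochberg adjustment over 12967 genes. The SE was derived from the log2 fold change and its F statistic. The common dispersion was 0.000211. The script was tested on simulated data. Positions came from GENCODE on hg19, with 19607 symbols matched directly, 2159 by an older symbol and 3793 without a position. The 57 genes and the lists of partner genes were chosen with earlier results of these data known. Every one of the 57 could be named. In full were given NF2, SMARCB1, EP300, CHEK2, the 5 lowest, the 5 highest and the 3 with the most counts. Of each partner list the lowest and the highest gene were named, and of other chromosome 22 genes the 5 lowest and those called higher with a mean of at least 50 counts.

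Replicates of a group differed by slightly more than counting noise (chi-square per degree of freedom 1.22 and 1.18). Between same-numbered libraries of control and RUNX3 KO cells the values were 17.1 and 17.3. They do not show whether replicates were separate cultures, and all 4 libraries were kept. DESeq2 1.42.0, limma 3.58.1, other scalings, filters and left-out replicates were alternatives. The precision of a value is set by its counts and its SE, which covers the spread of 2 libraries and not that of clones.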

Additional observations from a re-analysis of the deposited data

How the results depend on the processing

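The median of the 56 tested 22q genes stayed below 0 under all 13 alternatives, of which scaling by TMM without chromosome 22 genes was chosen after seeing the data. The number called lower was 44 to 52 with a replicate left out, 49 with DESeq2, 52 without a filter and 53 otherwise. Of the genes, 44 were called lower and 55 were negative in every alternative. The median moved to between -0.5242 and -0.5023 with a replicate left out, and the SD to between 0.2151 and 0.2392. Over all genes DESeq2 called 1863 lower and 1829 higher (3158 and 3183 with edgeR), and with a replicate left out, where the lone library is assumed to vary like the other group, 1378 to 2806 and 1285 to 2745. Fewer samples were in those fits. The cause of the lower DESeq2 counts was not tested. Scaling by library size or upper quartile moved the median of the other chromosome 22 genes to -0.5489 and -0.5496 and that of the partner genes to 0.01328 and 0.01255. The partner median was 0.02675 with at least 10 counts in every library, 0.02577 with TMM without chromosome 22 genes and 0.02527 to 0.04734 with a replicate left out. Partner genes called lower numbered 9 with DESeq2, 9 without a filter and 7 to 13 with a replicate left out, and those called higher 13 to 30. The cause was not tested. Replicate numbers did not pair the samples, since deviations of same-numbered libraries had a correlation of -0.0124 over 9493 genes. With the replicate block 53 of the 22q genes were lower (median -0.5247), and 3143 genes were lower and 3143 higher in all. Genes with few counts, such as CBX7 and ZMAT5, are limited by depth.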

Other observations

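The genes of chromosome 22 outside the list with the most counts also differed in size of the change. They were chosen after their values were seen. RPL3, a ribosomal protein gene, had a log2 fold change of -0.17, while LGALS1, which encodes galectin-1, had -1.08. Between these lay EIF3L (-0.57), TUG1 (-0.55), MCM5 (-0.49), the myosin gene MYH9 (-0.41), RANBP1 (-0.40), ATF4 (-0.33), SNRPD3 (-0.33) and PLXNB2 (-0.30). EIF3L is a second eIF3 subunit gene on this chromosome beside EIF3D.

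CSDC2, with fewer than 50 counts on average, was the sixth gene of chromosome 22 called higher. It had 23 and 26 counts in control cells and 44 and 57 in RUNX3 KO cells (log2 fold change 1.03).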
